A study of Mustela putorius furo and Mus musculus with 4 samples.

Results

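Heat shock proteins and their co-chaperones were compared between cultured ferret and mouse astrocytes. The genes were chosen by symbol and not by their values. A member is a gene whose symbol begins with HSPA, HSPB, HSPD, HSPE, HSPH or HSP90, is DNAJA, DNAJB or DNAJC with a number, is BAG1 to BAG6, or is CCT with a number, and which is listed for both species. The rule took 72 of the 13373 gene symbols shared by the species. By family these were 6 Hspb genes (grouped by symbol as small heat shock proteins), 8 HSP70 genes (Hspa), 3 HSP110 genes (Hspa4, Hspa4l and Hsph1), 2 HSP90 genes, 5 CCT subunits, 41 J-proteins (3 Dnaja, 11 Dnajb and 27 Dnajc), 5 BAG genes and 2 further matches, Hspbp1 and Hspbap1. Expression is given as FPKM, fragments mapped to a gene scaled by its exon length and by the mapped fragments of the library.

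Chaperones bind proteins that are unfolded or not yet folded. HSP70 proteins do so in cycles of ATP hydrolysis, J-proteins deliver the client and start the hydrolysis, and nucleotide exchange factors such as the HSP110 and BAG proteins end the cycle. HSP90 acts later, on clients that are nearly folded, and the ring-shaped CCT complex folds actin and tubulin. Small heat shock proteins hold unfolding clients without ATP, and several of them are abundant in astrocytes and in muscle. Each compartment has its own set, and the C-terminal end marks the compartment of some HSP70 and HSP90 proteins, not of all. Several cytosolic members carry an EEVD motif that is gripped by co-chaperones. Hspa5 and Hsp90b1 of the endoplasmic reticulum (ER) carry a KDEL retention signal.

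The coding ends of 5 mouse members are shown because the compartments are described separately below. The ends of the other members were not read. Each run gives the last 30 coding bases, 5′ to 3′, with the stop codon, from the GENCODE M21 transcripts on GRCm38, and the capitals mark the codons of the EEVD or KDEL signal. In the mouse genome Hsp90ab1 lies on chromosome 17 from 45567775 to 45573271 (minus strand), Hspa2 on chromosome 12 from 76404176 to 76406938 (plus strand), Hspa1l on chromosome 17 from 34972703 to 34979285 (plus strand), Hsp90b1 on chromosome 10 from 86690209 to 86705509 (minus strand) and Hspa5 on chromosome 2 from 34771970 to 34777547 (plus strand).
Hsp90ab1 (EEVD): gatgcctcgcgcatgGAAGAGGTGGATtaa
Hspa2 (EEVD): ggagggcccaccatcGAGGAAGTGGACtag
Hspa1l (EEVD): acaggccctaccatcGAGGAAGTAGATtag
Hsp90b1 (KDEL): aaggaatctacagagAAGGATGAATTGtaa
Hspa5 (KDEL): gaggatacatcagaaAAAGATGAGTTGtag

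The ferret group was 2 libraries of cortical astrocytes from pigmented sable ferrets at postnatal day 1, and the mouse group was 2 libraries of cortical astrocytes from wild-type ICR mice at postnatal day 1 to 3. Cells grew as mixed glia with 10% serum for 14 days, were shaken for 12 h and replated, and serum was removed on day 3 after plating, so that RNA harvested on day 7 came from cells that had spent 4 days without serum. Cells of 1 ferret pup were spread over 4 flasks, whereas cells of 4 mouse pups were pooled in a flask. Neither source states that duplicate libraries came from separate cultures, so p-values measure the spread between these libraries, which may be technical.

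The species were quantified on separate gene annotations, so a difference between species and a difference between gene models cannot be told apart. In these bulk cultures fewer cells of a type and less RNA per cell cannot be told apart either. The astrocyte marker Gfap was at 1481 and 1522 FPKM in the ferret and 1429 and 1546 FPKM in the mouse libraries, and of 7 astrocyte markers Aqp4, Aldh1l1 and Slc1a3 were called lower and S100b higher in the ferret. Markers of other cells differed, however, in summed FPKM. The sum of 9 microglial markers was 2.52 to 3.10 in ferret and 526 to 538 in mouse libraries, and all 9 were called lower in the ferret. The sum of 8 meningeal fibroblast markers was 111 to 125 against 1529 to 1553 (7 called lower). The other one, Pdgfra, stood higher in the ferret, at 3.07 and 3.23 against 1.64 and 1.23. It was called higher only after rescaling (log2 difference 1.04) or quantile normalization (1.17). The sum of 7 smooth muscle and pericyte markers was 160 to 184 against 1185 to 1228 (4 of 4 tested called lower, with Myh11, Des and Rgs5 under 1 in every library). The oligodendrocyte lineage sum, over 7 genes, was 166 to 184 in ferret and 67.3 to 67.7 in mouse libraries. Of these genes 3 were called higher, and Olig2 (4.92 and 5.18 against 9.62 and 9.80) and Cspg4 (1.04 and 1.16 against 2.00 and 1.81) stood lower in the ferret. By immunostaining of serum-grown cultures, the paper counted nearly all cells as astrocytes in both species, with few microglia in both. The part of these cells in the chaperone values was not tested.

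Each gene was fitted in limma on the log2(FPKM + 1) scale, which understates the change of low genes. A call required a p under 0.05 after Benjamini-Hochberg adjustment together with a log2 difference of more than 1 in size, and SE is the standard error of that difference. Of the 72 members, 64 had a mean of at least 1 FPKM in at least one species and were tested. Among these, 20 were called lower and 1 was called higher in ferret astrocytes, and 43 were not called. Over all 10204 genes tested, 30.1% were called lower and 13.1% higher. The count called lower, 20 of 64, was thus near the share of all genes. The median log2 difference was -0.49 over the 64 members and -0.35 over all genes. When each library was rescaled to the same summed FPKM over the shared symbols, the median of all genes moved to -0.01, and 15 members were called lower and 2 higher, against 21.7% and 19.1% of all genes. Quantile normalization also gave 15 lower and 2 higher, against 20.4% of all genes in each direction. Of the tested members, 41 had both ferret libraries under both mouse libraries and 18 had both above, and over all genes tested these shares were 59% and 35.1%.

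All 5 tested Hspb genes, both HSP90 genes and 4 of 7 HSP70 genes were called lower in the ferret. Cryab, a small heat shock protein outside the rule, was higher in the ferret without reaching a call (log2 difference 0.45). None of the 3 HSP110, 4 CCT, 3 Dnaja and 5 BAG genes tested was called in either direction, although 3, 2, 1 and 4 of them passed the adjusted p alone, by limma, as did 88.6% of all genes. The J-proteins of the Dnajb class had 4 of 9 called lower, and those of the Dnajc class had 4 of 24 called lower and 1 called higher. The family medians ran from -1.91 for the small heat shock proteins, -1.40 for HSP70 and -1.31 for HSP90 to -0.16 for CCT, -0.05 for Dnajc and 0.25 for BAG. With the libraries rescaled to the same sum, the medians of CCT, Dnaja and Dnajc became positive (0.23, 0.30 and 0.31), while those of the small heat shock proteins, HSP70 and HSP90 were -1.74, -1.005 and -0.92.

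**Figure D1:**
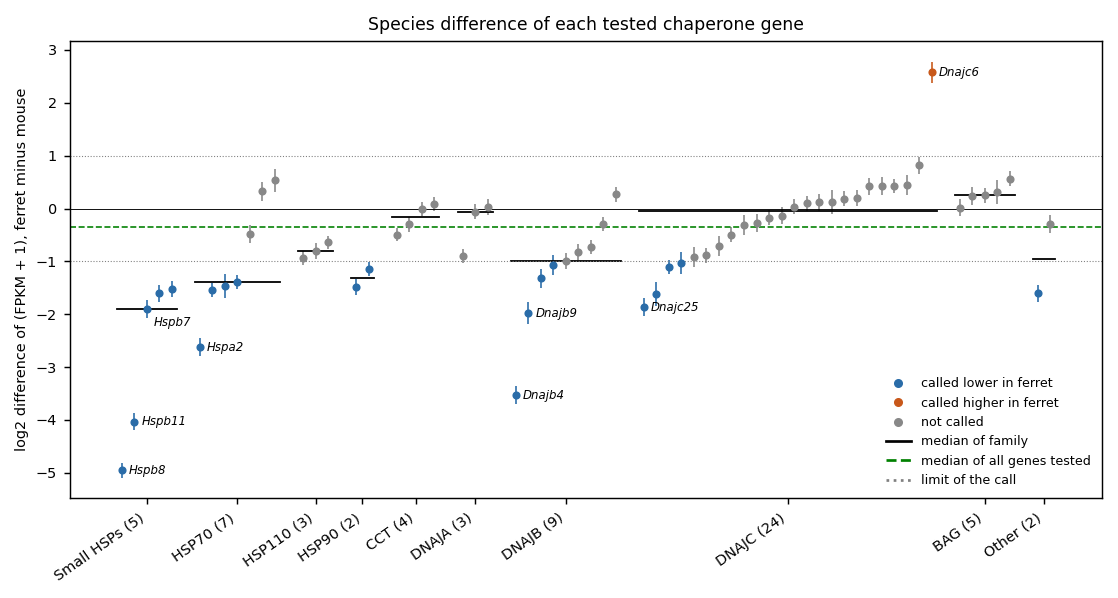
Log2 difference of (FPKM + 1), ferret minus mouse astrocytes, for the 64 tested members, grouped by family with the number tested in brackets. Points are limma estimates from 2 libraries per species, bars are 95% confidence intervals, and black lines are family medians. Small heat shock proteins lie lowest, from -4.96 to -1.52, BAG genes lie between 0.02 and 0.56, and Dnajc6 stands alone at 2.58.

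The members together summed to 2185 and 2289 FPKM in ferret astrocytes, against 4768 and 4926 FPKM in mouse astrocytes. As a share of all shared symbols this was 0.961% and 0.968% in the ferret and 1.59% and 1.60% in the mouse, a share that does not depend on the scaling between libraries. The difference of the mean sums was 2610 FPKM. Hspb8 alone made up 29.5% of it, followed by Hsp90ab1 with 15.2%, Hspa5 with 13.4%, Hspb1 with 11.3% and Hsp90b1 with 7.96%. These 5 genes together accounted for 77.4%.

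The summed FPKM of the small heat shock proteins with an Hspb symbol was 228 and 243 in the ferret and 1397 and 1494 in the mouse libraries, 6.14-fold higher in the mouse. This sum leaves out Cryab, a small heat shock protein without an Hspb symbol. Cryab stood at 987 and 1042 FPKM in ferret and at 728 and 756 FPKM in mouse libraries. HSP70 stood at 304 and 314 against 762 and 783, and HSP90 at 377 and 405 against 993 and 996, 2.50-fold and 2.54-fold higher in the mouse. Genes listed for the mouse alone, such as Hspa8, Hsp90aa1, Dnaja1 and Cct3, are in none of these sums. Hspa8 had 705 and 732 FPKM and Hsp90aa1 433 and 449 FPKM in the mouse libraries. Dnajb differed 2.14-fold, HSP110 1.79-fold, Dnaja 1.45-fold, CCT 1.14-fold and Dnajc 1.09-fold, all higher in the mouse as deposited. The 2 further matches, Hspbp1 and Hspbap1, together differed 2.72-fold in the same direction. After rescaling the directions of CCT and Dnajc turned. BAG was the only family with a higher sum in the ferret as deposited, at 135 and 147 against 113 and 110. This sum leaves out Bag1, listed for the mouse alone at 70.9 and 70.2 FPKM. For each family the 2 ferret sums lay on one side of the 2 mouse sums, but an exact permutation test of 2 libraries against 2, two-sided, cannot go below p = 0.333, which is the value every family gave.

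**Figure D2:**
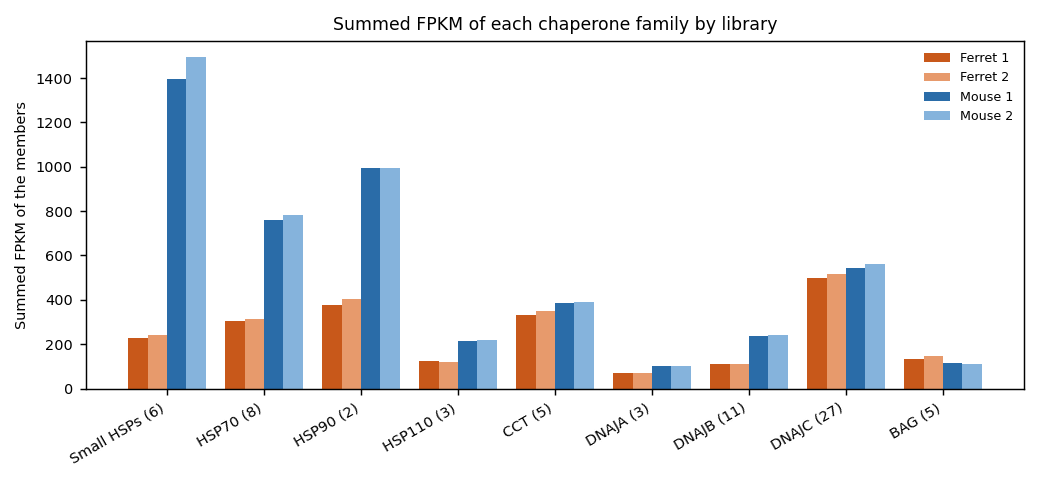
Summed FPKM of the members of each chaperone family (vertical axis, linear from 0) in each of the 4 libraries, with the number of members in brackets. The mouse bars stand far above the ferret bars for small heat shock proteins (1397 and 1494 against 228 and 243), HSP70 and HSP90, and near them for CCT and Dnajc. The small heat shock protein bars hold the Hspb genes only, without Cryab. Genes listed for the mouse alone, such as Hspa8, Hsp90aa1 and Bag1, are in no bar.

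Hspb8 showed the largest difference of any member. It encodes a small heat shock protein that works with Bag3 to route misfolded proteins to autophagy. It stood at 24.1 and 25.2 FPKM in ferret libraries and at 773 and 817 FPKM in mouse libraries, 32.3-fold higher in the mouse (log2 difference -4.96, SE 0.060, adjusted p = 6.86e-12 by limma). Mouse Hspb8 occupies bases 116408491 to 116422864 of chromosome 5 (GRCm38, minus strand) and has 4 exonic regions.

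Bag3, the partner of Hspb8, did not follow it. Its FPKM was 47.2 and 51.6 in the ferret and 33.0 and 33.2 in the mouse libraries, with both ferret libraries above both mouse libraries (log2 difference 0.56, SE 0.063, adjusted p = 1.49e-05 by limma), under the limit of a call. The Hspb8 to Bag3 ratio within a library was 0.511 and 0.488 in ferret and 23.4 and 24.7 in mouse astrocytes. This ratio does not depend on the scaling between libraries, and its ranges were far apart. Mouse Bag3 occupies bases 128523616 to 128546981 of chromosome 7 (GRCm38, plus strand).

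Hspb1 encodes HSP27, a stress-induced small heat shock protein that also binds the actin cytoskeleton. It had 152 and 164 FPKM in ferret and 438 and 470 FPKM in mouse libraries (log2 difference -1.52, SE 0.066, adjusted p = 1.10e-08 by limma). Hspb6 encodes HSP20, known from smooth muscle, and had 50.5 and 52.9 FPKM in ferret and 149 and 169 FPKM in mouse libraries (log2 difference -1.60). The pair kept nearly the same proportion, as the Hspb1 to Hspb6 ratio was 3.004 and 3.09 in ferret and 2.94 and 2.77 in mouse libraries. By contrast, the Hspb8 to Hspb1 ratio was 0.159 and 0.154 in ferret and 1.77 and 1.74 in mouse libraries. The smooth muscle markers Acta2 (22.9 and 20.4 against 221 and 238 FPKM) and Tagln (151 and 130 against 879 and 906 FPKM) were lower in the ferret as well. Of the other markers in that list, Cnn1 and Pdgfrb were also called lower, and Des and Rgs5 stood lower at under 1 FPKM. Myh11 stood higher in the ferret, at 0.181 and 0.209 against 0.124 and 0.0812 FPKM. The part of such cells in the Hspb6 and Hspb8 values was not tested.

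The make-up of the Hspb group differed between species. Hspb1 held 66.7% and 67.3% of the summed Hspb FPKM in ferret libraries and 31.4% and 31.5% in mouse libraries. Hspb8 held 10.6% and 10.4% in ferret and 55.4% and 54.7% in mouse libraries, so the leading gene was Hspb1 in the ferret and Hspb8 in the mouse. Hspb6 held 22.2% and 21.8% against 10.7% and 11.3%.

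Hspb11, Hspb7 and Hspb3 were low in ferret astrocytes. Hspb11 encodes a component of the intraflagellar transport of cilia (IFT25) and had 1.01 and 1.13 FPKM in ferret and 32.6 and 33.3 FPKM in mouse libraries (log2 difference -4.04). Among ciliary markers, Foxj1 stood at 22.0 and 21.3 FPKM in ferret and 41.8 and 44.0 FPKM in mouse libraries, and Rsph1 at 0.949 and 0.715 against 18.9 and 20.8. Dnah5, a dynein of motile cilia, went the other way, at 2.07 and 1.94 against 0.649 and 0.645 FPKM (log2 difference 0.87, and 1.08 after rescaling, called higher). The part of ciliated cells in the Hspb11 value was not tested. Hspb7, a small heat shock protein of heart and muscle, had 0.181 and 0.155 FPKM against 3.33 and 3.44 (log2 difference -1.91). Hspb3 is listed at 0 in both ferret libraries, was at 0.183 and 0.230 FPKM in the mouse libraries, and was not tested.

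Cryab, the alpha-B crystallin, is a small heat shock protein without an Hspb symbol and was taken as a partner gene outside the 72 members. It went the other way, at 987 and 1042 FPKM in ferret and 728 and 756 FPKM in mouse libraries (log2 difference 0.45, SE 0.065, adjusted p = 9.22e-05 by limma), without reaching the limit of a call. In the ferret libraries Cryab stood at 4.33 and 4.29 times the summed Hspb members, and in the mouse libraries at 0.521 and 0.506 times. Cryab and Hspb8 were at similar levels per length in the mouse (Hspb8 to Cryab ratio 1.06 and 1.08), whereas the ratio in the ferret was 0.024 in both libraries.

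**Figure D3:**
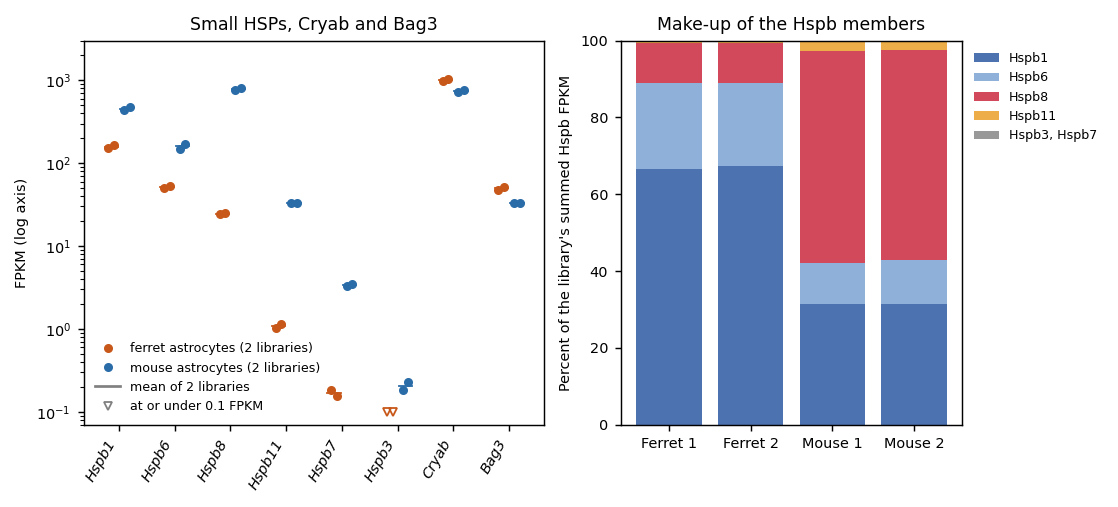
Left, FPKM on a log axis of the 6 Hspb genes, Cryab and Bag3 in each library (points, 2 per species; short lines are means; open triangles stand at or under 0.1 FPKM). Right, the percent that each Hspb gene makes up of the library's summed Hspb FPKM, where Hspb8 takes 54.7% to 55.4% in mouse and 10.4% to 10.6% in ferret libraries.

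The HSP70 genes of the ER and of mitochondria were both lower in ferret astrocytes. Hspa5 encodes BiP, the main HSP70 of the ER, which carries the KDEL end shown above. Its FPKM was 209 and 219 in ferret and 558 and 570 in mouse libraries, 2.64-fold higher in the mouse (log2 difference -1.40, SE 0.059, adjusted p = 9.39e-09 by limma). After rescaling to the same sum the difference was -1.005, just past the limit. Hspa9 encodes mortalin, which pulls proteins into mitochondria. It had 43.4 and 45.9 FPKM against 129 and 133 (log2 difference -1.54, SE 0.059, adjusted p = 4.80e-09). The Hspa5 to Hspa9 ratio was 4.82 and 4.76 in ferret and 4.32 and 4.28 in mouse libraries, a smaller shift than that of either gene.

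Hspa2, a cytosolic HSP70 best known from the testis, had 1.08 and 1.005 FPKM in ferret and 11.7 and 11.5 FPKM in mouse libraries, 11.1-fold higher in the mouse (log2 difference -2.63). Hspa12a, a distant HSP70 relative found in brain, had 5.74 and 7.47 FPKM against 19.3 and 20.3 (log2 difference -1.46). Hspa14, which works at the ribosome, was lower without reaching a call, at 17.8 and 18.4 against 24.1 and 27.5 FPKM (log2 difference -0.49). Hspa12b, an endothelial relative, is listed at 0 in both ferret libraries and stood at 0.771 and 0.744 FPKM in the mouse libraries, under the filter. The endothelial gene Cdh5 is also listed at 0 in both ferret libraries and was at 22.0 and 22.5 FPKM in the mouse, whereas Pecam1 was under 1 FPKM in every library.

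A pair of HSP70 genes were higher in ferret astrocytes at the adjusted p alone. Hspa13, a small HSP70-like protein of microsomes, had 25.5 and 21.5 FPKM in ferret and 18.4 and 18.6 FPKM in mouse libraries (log2 difference 0.32, adjusted p = 0.00392 by limma). Hspa1l, a cytosolic HSP70, had 1.04 and 1.46 FPKM against 0.566 and 0.534 (log2 difference 0.53, adjusted p = 5.79e-04). Hspa1l is a close relative of the heat-induced Hspa1a and Hspa1b. Sharing of reads among them was not tested, so its value is uncertain. With a pseudocount of 0.1 its log2 difference was 1.04 and it was called higher.

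Hsp90ab1 encodes the constitutive cytosolic HSP90. Its FPKM was 208 and 231 in ferret and 612 and 619 in mouse libraries, 2.80-fold higher in the mouse (log2 difference -1.48, SE 0.067, adjusted p = 1.45e-08 by limma). Hsp90b1 encodes GRP94, the HSP90 of the ER, and had 168 and 174 FPKM against 381 and 377 (log2 difference -1.14, SE 0.057, adjusted p = 3.08e-08). After rescaling to the same sum, Hsp90ab1 was still called lower (-1.09) and Hsp90b1 was not (-0.75). Within libraries, the Hsp90ab1 to Hsp90b1 ratio was 1.24 and 1.33 in ferret and 1.61 and 1.64 in mouse astrocytes.

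The 3 HSP110 genes, exchange factors for HSP70, were lower in the ferret without reaching a call. Hspa4 had 53.2 and 53.5 FPKM in ferret and 105 and 102 FPKM in mouse libraries (log2 difference -0.94), near the limit. Hsph1 stood at 35.8 and 34.0 against 58.9 and 64.4 (log2 difference -0.80), and Hspa4l at 33.0 and 32.3 against 50.6 and 52.4 (log2 difference -0.64). All 3 were lower at an adjusted p of at most 2.71e-06 by limma. The genes nearest the limit on its inner side were Dnajc30 (-1.03) and Dnajb13 (-1.07), and on its outer side Dnajb5 (-0.995) and Hspa4.

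**Figure D4:**
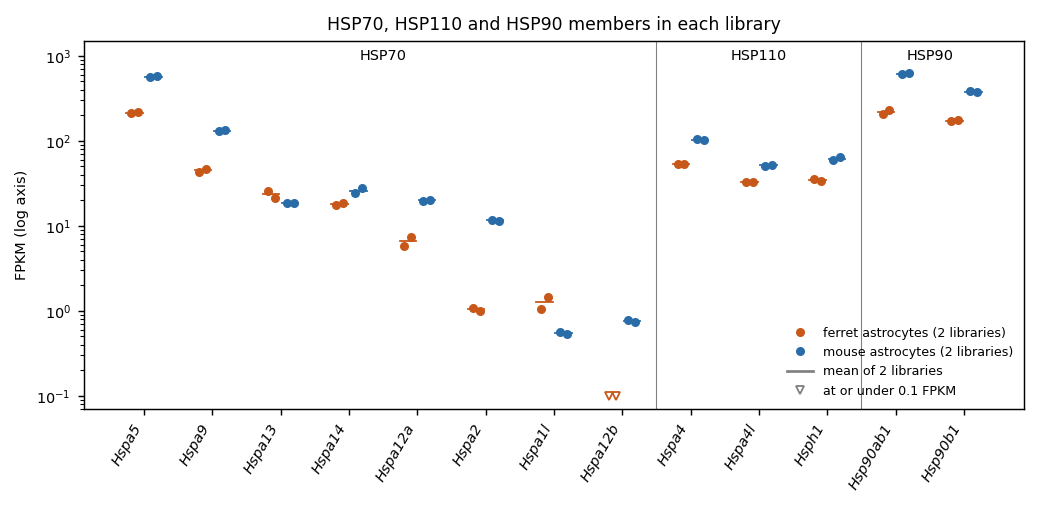
FPKM on a log axis of the HSP70, HSP110 and HSP90 members in each library (points, 2 per species; short lines are means; open triangles stand at or under 0.1 FPKM). Ferret points lie under mouse points for 11 of 13 genes, and Hspa13 and Hspa1l show the opposite order. Over all genes tested, 59% had both ferret libraries under both mouse libraries.

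Hspbp1, an exchange factor that ends the HSP70 cycle in the cytosol, was called lower in the ferret, at 6.85 and 7.60 FPKM against 23.4 and 24.6 (log2 difference -1.61, SE 0.072, adjusted p = 1.39e-08 by limma). Hspbap1, which binds Hspb1, stood at 2.93 and 3.17 against 3.94 and 3.95 FPKM (log2 difference -0.29). The BAG genes compared, exchange factors that couple HSP70 to degradation and survival pathways, were all at or above the mouse level. Bag6, which guides tail-anchored and misfolded proteins, had 53.5 and 57.2 FPKM in ferret and 47.7 and 45.1 FPKM in mouse libraries (log2 difference 0.25, adjusted p = 0.00405). Bag5 stood at 18.3 and 20.7 against 16.4 and 16.3, and Bag4 at 5.37 and 5.67 against 4.82 and 3.77, with log2 differences of 0.24 and 0.31. Bag2, an inhibitor of the ubiquitin ligase Stub1, overlapped between species at 11.0 and 12.2 against 11.4 and 11.5 FPKM (log2 difference 0.02, 95% confidence interval -0.14 to 0.18).

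Among the J-proteins, Dnajb4 differed most. It encodes a cytosolic partner of HSP70 known from heart and muscle. Its FPKM was 5.07 and 4.30 in ferret and 64.3 and 65.2 in mouse libraries, 13.8-fold higher in the mouse (log2 difference -3.54, SE 0.076, adjusted p = 1.23e-10 by limma). It made up 4.52% and 3.93% of the summed Dnajb FPKM in ferret libraries and 27.4% and 27.2% in mouse libraries, where it was the highest of the Dnajb genes compared. In the ferret the highest was Dnajb6, a suppressor of protein aggregation, with 41.0 and 40.6 FPKM against 49.4 and 50.9 in the mouse. Mouse Dnajb4 occupies bases 152178511 to 152210302 of chromosome 3 (GRCm38, minus strand).

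Dnajb1, the heat-induced HSP40 and the closest relative of Dnajb4 by function, had 6.56 and 6.52 FPKM in ferret and 12.2 and 12.5 FPKM in mouse libraries (log2 difference -0.83, adjusted p = 1.18e-06 by limma), outside the limit of a call. Dnajb2, a J-protein of neurons, stood at 18.2 and 18.4 against 30.4 and 31.6 FPKM (log2 difference -0.73). Dnajb5, a cytosolic J-protein, stood at 7.32 and 7.47 against 15.1 and 16.4 FPKM (log2 difference -0.995), and neither was called. Dnajb12, an ER membrane J-protein, was the only tested Dnajb gene above the mouse level, at 20.5 and 20.9 against 17.0 and 17.1 FPKM (log2 difference 0.27). Its relative Dnajb14 was called lower as deposited, at 3.26 and 2.87 against 8.96 and 9.38 FPKM (log2 difference -1.32), and was not called after rescaling (-0.9997). Dnajb13, a component of the radial spokes of motile cilia, had 1.75 and 1.40 FPKM against 4.36 and 4.41 (log2 difference -1.07, and -0.79 after rescaling, not called).

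The J-proteins of the ER lumen did not move together. Dnajb9, which is induced by unfolded proteins and delivers clients to Hspa5, had 8.43 and 6.73 FPKM in ferret and 32.9 and 32.3 FPKM in mouse libraries (log2 difference -1.98, SE 0.091, adjusted p = 1.68e-08 by limma). Dnajc3, an ER co-chaperone and inhibitor of the kinase PERK, stood at 22.7 and 22.3 against 49.7 and 49.9 (log2 difference -1.11, and -0.73 after rescaling, not called). Dnajc10, a disulfide reductase, stood at 31.2 and 28.4 against 56.0 and 55.8 (log2 difference -0.89). Dnajc1, a membrane J-protein that touches the ribosome, was higher in the ferret at the adjusted p alone, at 38.6 and 39.6 against 28.3 and 29.3 (log2 difference 0.43, adjusted p = 6.50e-05). The ratio of Hspa5 to the sum of these 4 J-proteins was 2.07 and 2.25 in ferret and 3.34 and 3.41 in mouse libraries.

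The J-proteins known from mitochondria differed in direction. Dnajc30 (log2 difference -1.03, described below) and Hscb, a partner gene of iron-sulfur cluster assembly (-1.21), were called lower like Hspa9, though neither was called after rescaling. Dnajc19, which regulates Hspa9 at the import channel, had 65.4 and 65.5 FPKM in ferret and 34.3 and 39.1 FPKM in mouse libraries (log2 difference 0.82, SE 0.070, adjusted p = 1.83e-06 by limma), and was called higher after rescaling (1.20). Dnaja3, the mitochondrial class A J-protein, overlapped at 21.6 and 23.3 against 21.8 and 22.2 (log2 difference 0.03, 95% confidence interval -0.12 to 0.17). Dnajc15, a relative of Dnajc19, was lower as deposited (log2 difference -0.18) and higher after rescaling (0.20). The Hspa9 to Dnajc19 ratio was 0.663 and 0.702 in ferret and 3.76 and 3.41 in mouse libraries, and the Hspa9 to Dnaja3 ratio was 2.01 and 1.98 against 5.94 and 6.01. The mouse tables also list pseudogene copies of Hspa9 and Dnajc19, at 0.124 and 0.0827 FPKM for Hspa9-ps1 and 0.537 and 0.567 FPKM for Dnajc19-ps, and reads shared with such copies were not tested.

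Dnajc6 was the only member called higher in ferret astrocytes. It encodes auxilin, the neuronal J-protein that recruits Hsc70 to strip clathrin from endocytic vesicles. Its FPKM was 7.10 and 6.72 in ferret and 0.423 and 0.233 in mouse libraries (log2 difference 2.58, SE 0.090, adjusted p = 2.52e-09 by limma), and it stayed called under every setting tried. Its widely expressed relative Gak stood at 14.1 and 14.1 FPKM in ferret and 22.6 and 20.5 in mouse libraries. Of the neuronal markers, Nefl was at 4.42 and 5.68 FPKM in ferret and 0.137 and 0.0917 in mouse libraries, while Rbfox3 and Snap25 were under 1 FPKM in all 4. Syn1, a synaptic vesicle gene, stood at 2.95 and 2.85 against 2.33 and 2.38 FPKM (log2 difference 0.22, not called). Mouse Dnajc6 occupies bases 101496648 to 101642799 of chromosome 4 (GRCm38, plus strand). By immunostaining of serum-grown cultures, the paper counted a small share of neurons in the ferret and listed none in the mouse. The part of neuronal RNA in the Dnajc6 value was not tested.

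Further Dnajc genes were called lower in the ferret. Dnajc25 had 1.52 and 1.42 FPKM against 8.18 and 7.88 (log2 difference -1.87), and Dnajc12, a co-chaperone of aromatic amino acid hydroxylases, had 0.762 and 0.561 against 4.50 and 3.71 (log2 difference -1.62). Dnajc30, a mitochondrial J-protein, stood at 3.40 and 4.05 against 8.13 and 9.14 (log2 difference -1.03, and -0.70 after rescaling, not called). The remaining 19 tested Dnajc genes were not called, and their log2 differences ran from -0.92 for Dnajc9, a histone chaperone, to 0.82 for Dnajc19. The highest Dnajc gene in both species was Dnajc8, a splicing factor, at 82.7 and 90.9 FPKM in ferret and 79.6 and 82.7 in mouse libraries (log2 difference 0.09, 95% confidence interval -0.05 to 0.24). Dnaja2, the highest class A gene compared, had 36.3 and 35.3 against 66.1 and 68.9 FPKM (log2 difference -0.90), and Dnaja4 had 11.7 and 12.3 against 12.3 and 12.7 (log2 difference -0.06).

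**Figure D5:**
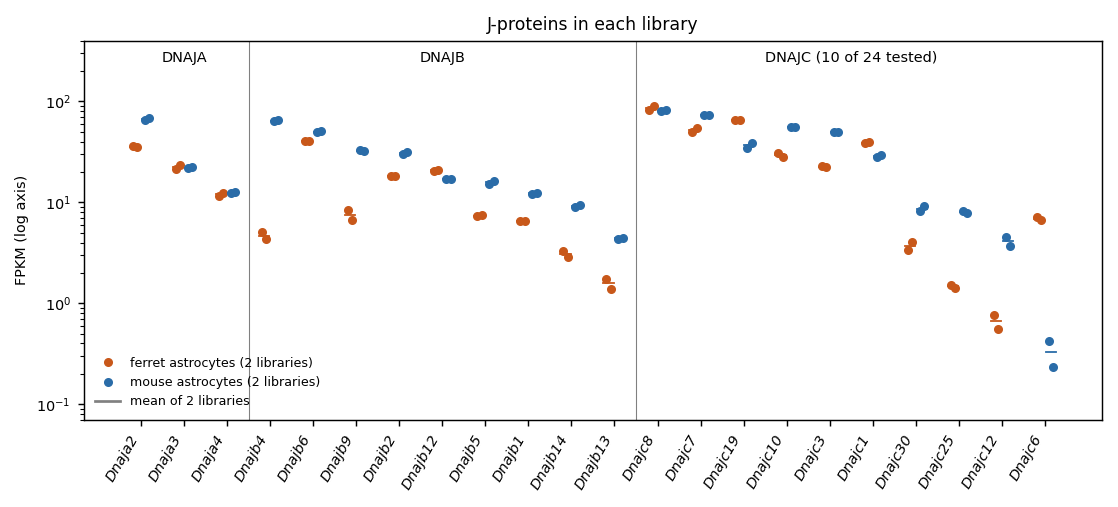
FPKM on a log axis of the 3 Dnaja genes, the 9 tested Dnajb genes and 10 of the 24 tested Dnajc genes in each library (points, 2 per species; short lines are means). Dnajb4 (5.07 and 4.30 in ferret, 64.3 and 65.2 in mouse) and Dnajc6 (7.10 and 6.72, 0.423 and 0.233) show the widest gaps, in opposite directions.

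The summed J-proteins stood at 2.24 and 2.22 times the summed HSP70 genes in ferret libraries and at 1.15 and 1.16 times in mouse libraries. Without Hspa5, which held 68.9% to 73.2% of the HSP70 sum, the values were 7.19 and 7.29 against 4.30 and 4.26. Hspa8 was not compared here, so these sums do not cover every abundant HSP70.

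The CCT subunits, which occur once per ring in the complex, stayed close to one another in every library. Cct2 was at 104 and 110 FPKM in ferret and 101 and 102 in mouse libraries, and Cct4 at 69.9 and 73.8 against 70.9 and 73.9. Neither differed by limma (adjusted p = 0.223 and 0.861, with 95% confidence intervals from -0.05 to 0.21 and from -0.15 to 0.12). Cct5 (79.1 and 87.8 against 103 and 103) and Cct8 (77.5 and 78.9 against 109 and 112) were lower in the ferret by log2 differences of 0.30 and 0.50 in size as deposited, and after rescaling Cct5 turned to 0.09. Among these 4 subunits the highest stood at 1.49 times the lowest in both ferret libraries and at 1.54 and 1.52 times in the mouse libraries. Cct2 was the highest in the ferret and Cct8 in the mouse. Cct6b, a testis form, was under 0.5 FPKM in every library, and Tcp1, the founding subunit and a partner gene outside the rule, was at 111 and 119 FPKM in ferret and 108 and 117 in mouse libraries.

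The partner genes outside the rule were taken as 8 lists, of which 57 genes were shared by the species and 54 tested. Of these, 13 (24.1%) were called lower and 4 (7.41%) higher in ferret astrocytes, against 30.1% and 13.1% of all genes tested. Their median log2 difference was -0.37, near the -0.35 of all genes. After rescaling, 6 were called lower and 7 higher, against 21.7% and 19.1% of all genes. Among 4 tested heat shock factors and regulators, the member Hspbap1 included, 1 was called lower and 1 higher. Hsf1, the main transcription factor of the heat shock response, was the lower gene, at 5.77 and 5.70 FPKM in ferret and 13.4 and 14.2 in mouse libraries (log2 difference -1.14, and -0.79 after rescaling, not called). Hsf2bp, which binds Hsf2, was the higher gene, at 3.62 and 4.76 against 0.198 and 0.308 FPKM (log2 difference 2.04).

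Of 16 tested HSP90 co-chaperones, 3 were called lower and 1 higher as deposited, 18.75% and 6.25% against 30.1% and 13.1% of all genes. After rescaling 1 was called lower and 3 higher, so the balance turned with the scaling. Chordc1, a heat-induced HSP90 partner, differed most, at 6.15 and 5.42 FPKM in ferret and 29.5 and 29.3 in mouse libraries (log2 difference -2.16). Unc45a, a myosin chaperone, was the higher gene, at 21.8 and 22.5 against 9.38 and 9.73 FPKM (log2 difference 1.13). Stub1, the ubiquitin ligase CHIP that binds the EEVD end, stood at 75.4 and 79.7 against 50.0 and 54.8 FPKM (log2 difference 0.56), under the limit of a call.

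Of 12 tested ER chaperones and foldases, 3 (25%) were called lower and none higher, with a median log2 difference of -0.45. Over all genes 30.1% were called lower, with a median of -0.35. Manf, a secreted ER stress protein, had 17.6 and 18.3 FPKM in ferret and 235 and 248 in mouse libraries (log2 difference -3.68). Sdf2l1, a partner of Hspa5, and Sec63, a J-protein of the ER translocon, were the others, and Sec63 was not called after rescaling (-0.67). Hyou1, the HSP110 of the ER, stood at 40.5 and 41.4 against 35.6 and 36.0 FPKM, so that it lay above the mouse level while Hspa5 lay below it. Of 5 tested regulators of the unfolded protein response, Ddit3, which encodes CHOP, was called lower (4.23 and 4.82 against 32.6 and 30.6 FPKM) and Ppp1r15a, which encodes GADD34, was called higher (82.0 and 87.5 against 17.5 and 17.5 FPKM). Each made up 20% of the list, against 30.1% of all genes called lower and 13.1% called higher.

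Of 9 tested mitochondrial partners, 3 (33.3%) were called lower and none higher, near the 30.1% of all genes called lower. After rescaling 1 of them was called lower. Trap1, the mitochondrial HSP90, had 18.2 and 19.6 FPKM in ferret and 46.5 and 48.6 in mouse libraries (log2 difference -1.29, and -0.91 after rescaling, not called), and the protease subunit Clpp had 11.7 and 11.9 against 41.0 and 41.8 (log2 difference -1.73). Of 6 tested prefoldin and CCT partners, Pdcl and Pdcl3 were called lower and Pfdn6 was called higher, and Pdcl was not called after rescaling (-0.74). As deposited these were 33.3% lower and 16.7% higher, near the 30.1% and 13.1% of all genes. Pdcl3, which assists the CCT ring, had 12.9 and 13.4 FPKM in ferret and 38.6 and 39.1 in mouse libraries (log2 difference -1.50), and Pfdn6, a subunit of the prefoldin that hands clients to the ring, had 69.3 and 74.3 against 32.6 and 36.7 (log2 difference 1.03). Hscb and Sec63 were called lower among the 4 J-proteins without a DNAJ symbol (50%, against 30.1% of all genes), and neither was called after rescaling (-0.88 and -0.67).

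The 8 members under the filter were Hspb3, Hspa12b, Cct6b, Dnajb7, Dnajb8, Dnajc22, Dnajc5b and Dnajc5g. None exceeded 0.771 FPKM in any library, and Dnajb8, a testis J-protein, is listed at 0 in all 4.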

How the data were processed

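Poly(A)-selected, stranded, paired-end RNA-seq libraries of cultured astrocytes, 2 of ferret and 2 of mouse, were analysed. Per the labels and the study's methods, the authors aligned reads with STAR (2.7.0f) to the Ensembl genome of each species and deposited FPKM per gene from Cufflinks (2.2.1). FPKM holds no counts. The paper also reports read counts and gene lengths, which were not used here. Depth was therefore not examined, low values have no interval here, and a 0 can be a failed estimate. Symbols were matched in upper case. No member had several rows in a species. log2(FPKM + 1) of the 10204 genes with a mean of at least 1 FPKM in a species was fitted with limma 3.58.1 (R 4.3.3, trended empirical Bayes), with p-values adjusted over all of them by Benjamini-Hochberg. The fit was tested on simulated data. Sums, shares and ratios used pandas 2.3.3. The members, families, lists and alternatives were chosen with earlier results of these data known. Values per library were given for all Hspb, HSP70, HSP110, HSP90 and BAG members, the highest and lowest CCT subunit, the highest gene of each DNAJ class, called DNAJ genes and those nearest the limit. Partner genes were named for the largest called difference in a list or from a fixed set (Cryab, Hsf1, Tcp1, Trap1, Hyou1, Stub1). Others were chosen after their values were seen. Coding ends and mouse positions are from GENCODE M21 on GRCm38, the authors' build in another release. A ferret genome was not used here. Replicate numbers come from the labels alone.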

Additional observations from a re-analysis of the deposited data

How the results depend on the processing

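The direction of the weakly shifted genes depended on the scaling between species. Over all genes, those called higher made up 30.3% of calls as deposited (1336 higher, 3069 lower), 46.9% with FPKM rescaled to the mean library sum (1954 and 2215) and 50.0% after quantile normalization (2080 and 2082). Chaperone genes called lower numbered 20 as deposited, 15 under either scaling, 21 with a pseudocount of 0.1 and 19 to 22 with a library left out. Those called higher numbered 1, and 2 under either scaling and with a pseudocount of 0.1. Called lower as deposited but not under either scaling were Hsp90b1, Dnajb14, Dnajb13, Dnajc3 and Dnajc30. With the rescaled libraries the log2 ratio of sums turned to 0.21 for CCT, 0.27 for Dnajc and 0.0186 for all J-proteins. The sign turned, after rescaling and quantile normalization respectively, for Cct4 (0.38 and 0.31), Cct5 (0.0851 and 0.0390), Dnaja4 (0.30 and 0.36), Dnajb6 (0.0919 and 0.0645), Dnajc11 (0.0555 and 0.0851), Dnajc15 (0.20 and 0.21), Dnajc2 (0.22 and 0.28), Dnajc27 (0.0346 and 0.15) and Hspbap1 (0.0150 and 0.14). Rescaling by itself raises every ferret value against the mouse.

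Leaving out a library turned the sign of Bag2 (-0.0460 to 0.0824), Cct4 (-0.0495 to 0.0271), Dnaja3 (-0.0224 to 0.0782) and Dnajc4 (-0.0405 to 0.28), none of which passed the adjusted p. Without ferret replicate 1 or mouse replicate 2 Dnajc30 was no longer called (-0.93 and -0.95), and without ferret replicate 2 neither was Dnajb13 (-0.97). Where a species kept 1 library, it was assumed to vary like the others. The replicate number as a block gave 20 and 1 calls as well, with a correlation of 0.010 between deviations of same-numbered libraries, and changed no call among the members, and neither did omitting the filter or summing rows of a symbol. The depth is unknown from FPKM, so precision rests on the 2 libraries of each species.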

Other observations

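The mouse tables list 33 symbols of the same families that were not compared here, 16 of them named as pseudogenes or related sequences. Hspa8, which encodes the constitutive HSP70 of the cytosol (Hsc70), had 705 and 732 FPKM in the 2 mouse libraries, above Hspa5. Hsp90aa1, the inducible cytosolic HSP90, had 433 and 449 FPKM, below Hsp90ab1. Hspd1 and Hspe1, which form the mitochondrial chaperonin and its lid, stood at 116 and 115 FPKM and at 131 and 132 FPKM.

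Of the J-proteins and CCT subunits in the mouse tables, Dnaja1 had 91.0 and 92.2 FPKM, above the Dnaja2 that was compared. Dnajb11, a J-protein of the ER lumen, had 72.8 and 72.6 FPKM, above the Dnajb4 that was compared. Cct3, Cct6a and Cct7 stood between 96.6 and 112 FPKM, inside the range of Cct2, Cct4, Cct5 and Cct8 in the same libraries. Bag1 had 70.9 and 70.2 FPKM, above each of the 5 BAG genes compared. The heat-induced Hspa1a and Hspa1b stood at 2.93 and 3.14 FPKM and at 3.43 and 3.78 FPKM, values that are uncertain because these copies are nearly identical.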
